A study of Caenorhabditis elegans with 12 samples.

Results

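The metallothionein genes mtl-1 and mtl-2 and the cadmium-responsive genes cdr-1 to cdr-7 of Caenorhabditis elegans were followed in whole animals given fluvastatin. They were found by gene symbol in the deposited table, and they are 9 of its 30301 genes. Where a gene had several transcript models, the model with the highest mean was used, and among these genes that applied only to cdr-7. Of the 9, 8 passed a filter on low values (at least 10 normalised reads in at least 3 libraries) and were tested among 15529 genes. The exception was cdr-3. mtl-1 had been singled out as the member that is higher with fluvastatin, so its response to fluvastatin is given as a description with no test, and counts of genes called with fluvastatin cover the other 7 tested genes.

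Metallothioneins are small cysteine-rich proteins that bind zinc, copper and cadmium. In C. elegans, mtl-2 is expressed in the intestine and mtl-1 in the pharynx and, when metal is added, the intestine, where GATA factors such as ELT-2 act on their promoters. The cdr genes encode a family of proteins related to glutathione S-transferases, and cdr-1, which gave the family its name, is induced by cadmium in intestinal cells and encodes a lysosomal membrane protein. cdr-5 is named hrg-2 in the Ensembl and RefSeq annotations, and HRG-2 of C. elegans is known for a part in heme use in the epidermis.

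The study compared dlk-1 mutants with wild-type worms. DLK-1 is the upstream kinase of a p38 MAP kinase cascade, and the sample titles call the mutant a p38 knockout. Fluvastatin, a statin, inhibits HMG-CoA reductase of the mevalonate pathway. The 4 groups were dlk-1 mutants with 1 mM fluvastatin, dlk-1 mutants with 0 mM, wild type with 1 mM and wild type with 0 mM, each exposed on bacterial plates for 9 h from the L4 larval stage and each with 3 RNA-seq libraries. The sources used here name no allele. The groups without fluvastatin are called controls below.

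Values are reads divided by 1 size factor per library, called normalised reads, and 1 read was worth 0.844 to 1.19 of them. The libraries held 9370975 to 12438131 reads over 1 model per gene. Transcripts of dlk-1 were lower but not absent in the mutant: 792, 706 and 804 normalised reads in mutants with fluvastatin, 481, 541 and 506 in mutant controls, 1419, 983 and 1345 in wild type with fluvastatin, and 961, 791 and 911 in wild-type controls. The gene overlaps mec-19, and the library kit does not mark strand. The first principal component held 58.5% of the variance and set replicate 2 of all groups apart from replicates 1 and 3, whereas the second, with 14.4%, separated fluvastatin from control. Libraries with the same replicate number deviated from their group means together, so each limma result without a replicate term is set beside the fit with the number as a term, the replicate block, where the block changes the call. No label says that a number marks a shared culture or day, nor that each replicate was a culture of its own. The p-values therefore rest on the spread among these libraries, part of which may be technical.

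mtl-1, the metallothionein gene K11G9.6 at V:6691371-6691863 on the minus strand of WBcel235, was several times higher with fluvastatin in mutant and wild type alike. In mutants it had 84.4, 41 and 51.8 normalised reads with fluvastatin, against 19.3, 8.57 and 10.5 in controls. In wild type it had 90.2, 54.1 and 44.9 with fluvastatin, against 17.4, 18.1 and 4.75 in controls. Every fluvastatin library stood above every control library of its genotype, and each of the 3 same-numbered pairs was higher with fluvastatin.

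The mtl-1 means were 59.1 ± 22.6 and 12.8 ± 5.73 normalised reads in mutants with and without fluvastatin, and 63.1 ± 23.9 and 13.4 ± 7.51 in wild type with and without it (SD, n = 3 each). The log2 difference of log2(normalised reads + 1) was 2.14 ± 0.53 (SE) in mutants and 2.28 ± 0.53 in wild type. The gene was counted from few reads, 4 to 100 per library, and the lowest was the wild-type control of replicate 3.

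mtl-2, the other metallothionein gene (T08G5.10, V:14018270-14018673, minus strand), did not pass in either genotype. It had 193, 176 and 263 normalised reads in mutants with fluvastatin, against 141, 199 and 288 in mutant controls. In wild type it had 172, 217 and 248 with fluvastatin, against 105, 215 and 271 in controls. The groups overlapped in both genotypes, and replicate 3 was the highest library of all 4 groups. Its log2 difference was 0.05 in mutants (95% interval -0.75 to 0.84) and 0.20 in wild type (-0.60 to 0.99), with an adjusted p of 1.00 in limma in each. With the replicate block the intervals narrowed to -0.34 to 0.44 in mutants and -0.20 to 0.59 in wild type.

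**Figure D1:**
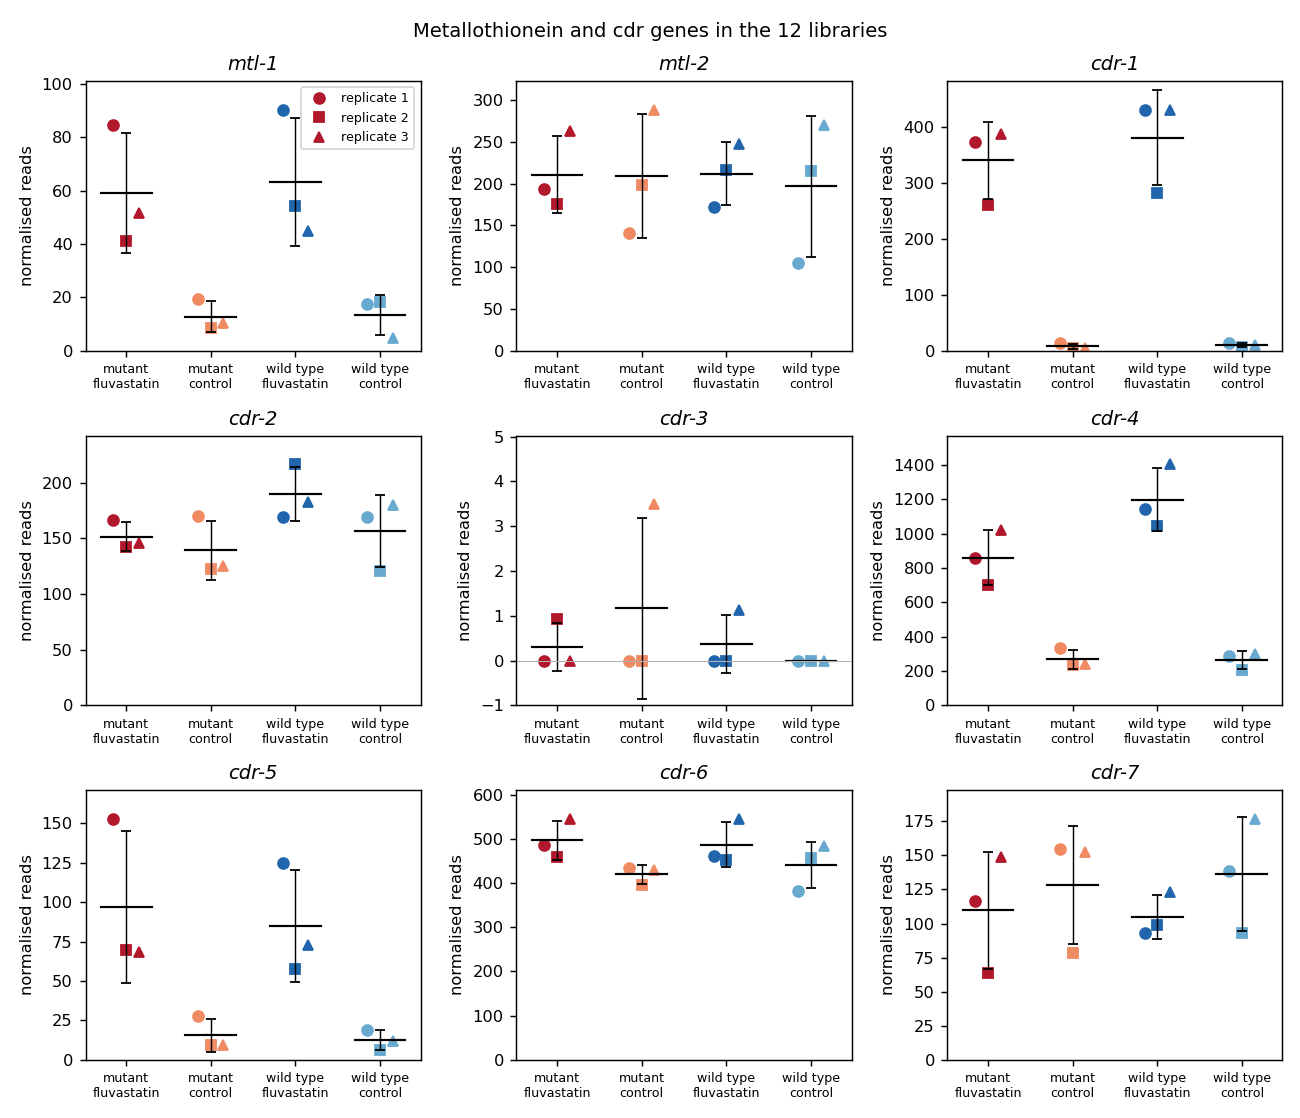
Normalised reads of the 9 genes in each of the 12 libraries, by group, with a linear axis for each gene. Symbols mark the replicate number, bars the group mean and whiskers the SD (n = 3). mtl-1, cdr-1, cdr-4 and cdr-5 have fluvastatin libraries above all controls of the same genotype, mtl-2 and cdr-7 have overlapping groups, and cdr-3 has at most 3 reads in a library.

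cdr-1 (F35E8.11, V:15921309-15922820, plus strand) had the largest response of the 8 tested genes. It had 372, 261 and 387 normalised reads in mutants with fluvastatin, against 13.2, 4.76 and 5.81 in mutant controls. In wild type it had 429.7, 282 and 429.7 with fluvastatin, against 13.9, 7.23 and 9.49 in controls. The fluvastatin libraries were far above every control library, which held 5 to 16 reads each. The ratio of group means was 42.9 in mutants and 37.3 in wild type. The log2 difference was 5.35 ± 0.37 in mutants (adjusted p = 3.03e-05) and 5.1 ± 0.37 in wild type (adjusted p = 3.67e-05). cdr-1 passed the filter on low values only through its fluvastatin libraries, which limits what these p-values mean. In the limma fit with no filter on low values it was called in each genotype too. In a fit with no replicate term and without the 4 libraries of replicate 3, the limma call held in mutants (adjusted p = 0.0482) and was lost in wild type (0.051). With the replicate block and all 12 libraries the adjusted p in limma was 4.49e-10 in mutants and 6.75e-10 in wild type.

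cdr-4 (K01D12.11, V:12407366-12408625, minus strand), a family member known in C. elegans to respond to several metals, rose from a higher base. It had 859, 701 and 1022 normalised reads in mutants with fluvastatin, against 332, 234 and 238 in mutant controls. In wild type it had 1142, 1046 and 1403 with fluvastatin, against 286, 204 and 299 in controls. No fluvastatin library overlapped a control library. The log2 difference was 1.68 ± 0.21 in mutants (adjusted p = 0.00175) and 2.19 ± 0.21 in wild type (adjusted p = 0.000198), ratios of means of 3.21 and 4.55. In fits of 8 libraries without a replicate term, the limma call of cdr-4 was lost without all libraries of replicate 1 (adjusted p = 0.109 in mutants and 0.05005 in wild type) and without those of replicate 3 (0.193 and 0.05001). No single left-out library ended it. With the replicate block and all 12 libraries the adjusted p of cdr-4 in limma was 4.02e-06 in mutants and 3.32e-07 in wild type.

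cdr-5, the gene annotated as hrg-2 (K01D12.14, V:12409415-12410513, minus strand), was low in controls and higher with fluvastatin. It had 153, 69.9 and 68.7 normalised reads in mutants with fluvastatin, against 27.4, 9.52 and 9.30 in mutant controls. In wild type it had 125, 57.3 and 72.9 with fluvastatin, against 19.1, 6.33 and 11.9 in controls. Replicate 1 was the highest library in all 4 groups, and the groups did not overlap. The log2 difference was 2.65 ± 0.54 in mutants (adjusted p = 0.0439) and 2.72 ± 0.54 in wild type (adjusted p = 0.0313). These calls sat near the threshold: in the fit without a replicate term, leaving out 1 library at a time kept the call in 3 of 12 fits in mutants and 6 of 12 in wild type. It was lost in mutants without any 1 of the 6 fluvastatin libraries, mutant controls 2 and 3 or wild-type control 3 (adjusted p 0.0574 to 0.215), and in wild type without mutant fluvastatin library 3, any 1 of the 3 wild-type fluvastatin libraries or wild-type controls 2 and 3 (0.0506 to 0.166). With the replicate block the adjusted p was 2.17e-06 in mutants and 1.31e-06 in wild type, and the call held in all 12 such fits of each genotype.

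The remaining cdr genes did not pass in either genotype. cdr-6 (K01D12.12, V:12412487-12413701, minus strand) averaged 497 ± 44.1 normalised reads in mutants with fluvastatin and 419.8 ± 21.4 in mutant controls. In wild type it averaged 487 ± 51.0 with fluvastatin and 441 ± 53.0 in controls. Its mutant groups did not overlap, at 458 to 545 against 395 to 434, and its log2 difference there was 0.24 (95% interval -0.03 to 0.51, and 0.07 to 0.42 with the replicate block, where the adjusted p was 0.118). In wild type the groups overlapped and the log2 difference was 0.14 (-0.12 to 0.41).

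cdr-2 (C54D10.1, V:12414656-12415709, minus strand) averaged 152 ± 12.9 normalised reads in mutants with fluvastatin and 139 ± 26.3 in mutant controls, and 189.6 ± 24.3 in wild type with fluvastatin and 157 ± 32.1 in wild-type controls. cdr-7 (K01D12.13, V:12410879-12412113, minus strand) was the only tested gene of the 9 with a lower mean under fluvastatin, at 109.6 ± 43.2 and 128 ± 43.5 in mutants with and without it, and 105 ± 16.16 and 136 ± 41.9 in wild type with and without it. The log2 differences of cdr-2 were 0.13 (-0.30 to 0.57) in mutants and 0.29 (-0.15 to 0.72) in wild type. Those of cdr-7 were -0.24 (-1.07 to 0.59) and -0.33 (-1.16 to 0.50). All groups of these genes overlapped between fluvastatin and control.

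cdr-3 (C54D10.2, V:12416358-12417377, minus strand) gave 5 reads over all 12 libraries. They were 1 read in a mutant library with fluvastatin, 3 in a mutant control and 1 in a wild-type library with fluvastatin, and wild-type controls had 0. A count of 0 allows up to 3 reads, which is 2.53 to 3.56 normalised reads depending on the library, so no difference was detectable at this depth.

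**Figure D2:**
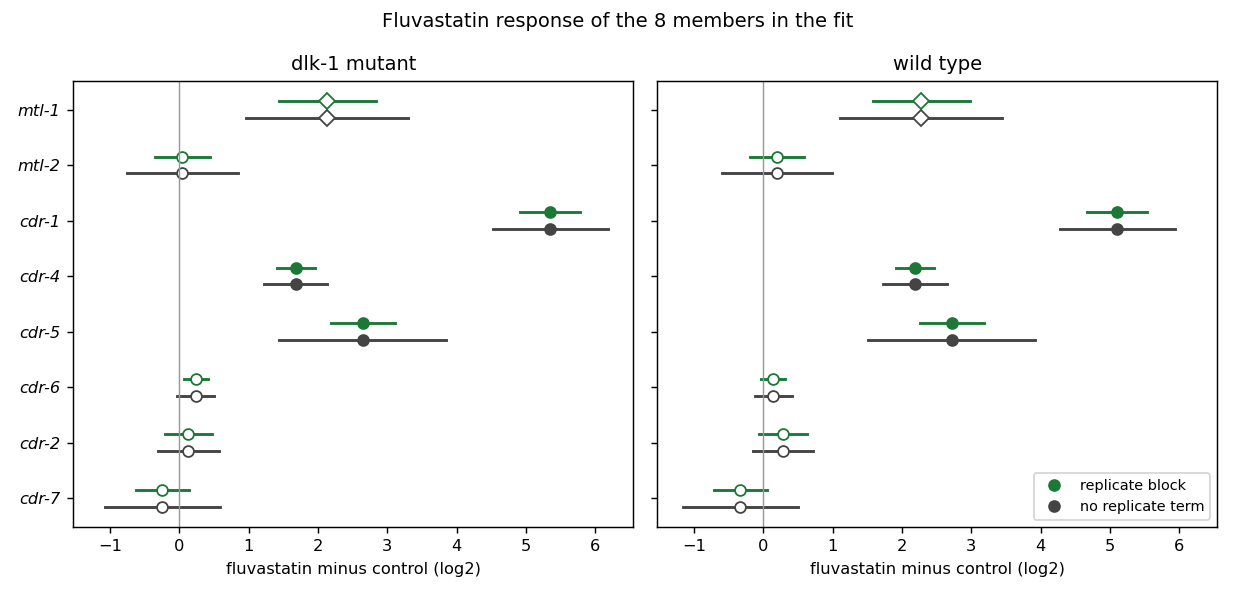
Log2 difference, fluvastatin minus control, of the 8 genes that passed the filter, in the dlk-1 mutant (left) and wild type (right), with 95% intervals from limma. Green marks the fit with the replicate block and grey the fit without a replicate term, and filled points have an adjusted p under 0.05. mtl-1, drawn as open diamonds, is shown without a test. cdr-1 lies near 5 in both genotypes, mtl-1, cdr-4 and cdr-5 lie between 1.68 and 2.72, and the other 4 genes lie between -0.33 and 0.29.

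Counted together without mtl-1, 3 of 7 tested genes (cdr-1, cdr-4 and cdr-5) were called higher in mutants, where 1.38% of all genes were called in either direction, and the same 3 in wild type, where 1.82% were. With the replicate block the same 3 of 7 were called higher in each genotype. Over all genes 6.31% were then called in mutants and 7.03% in wild type, in either direction. The members were chosen with earlier results of these data known, so these counts are descriptions. None of the 7 was called lower in these fits. cdr-1 reached 10 normalised reads in fewer than 3 control libraries. It was therefore among the 7 only through its fluvastatin libraries. The groups did not overlap for 4 of these 7 in mutants, cdr-6 being the fourth (7.93% of all genes), and for 3 of 7 in wild type (8.97%). The median log2 difference of the 7 was 0.24 in mutants and 0.29 in wild type, against 0.0072 and 0.0058 over all genes tested.

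No gene of the 8 was called for a difference in fluvastatin response between mutant and wild type, in a fit where 0% of all genes were called with or without the replicate block. Over all genes 29 had an unadjusted p under 0.05 in limma without the block and 386 with it. Both are fewer than the 0.05 share of 15529 genes expected if no gene differed. These tests were therefore cautious, and the lack of calls does not show equal responses. edgeR and DESeq2 on the recovered reads also called 0. The lowest p of the 8 was that of cdr-4, whose log2 response in mutants minus that in wild type was -0.51 ± 0.29 (95% interval -1.16 to 0.14). With the block the cdr-4 interval was -0.90 to -0.12 (unadjusted p = 0.0144 in limma, adjusted p = 1.00). For mtl-1 the difference of responses was -0.14, with an interval of -1.80 to 1.51 without the block and -1.13 to 0.84 with it. For cdr-1 it was 0.25 (-0.93 to 1.42), and for cdr-5 it was -0.07 (-1.77 to 1.63).

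Between genotypes at the same dose, none of the 8 genes was called either. With fluvastatin, limma called 0% of all genes without the block and 0.27% with it, and without fluvastatin it called 0% and 0.0966%. With fluvastatin 2 of 8 genes had mutant libraries wholly below wild-type libraries, where 4.54% of all genes did not overlap in either direction. cdr-4 had 701 to 1022 normalised reads in mutants with fluvastatin against 1046 to 1403 in wild type with fluvastatin, a log2 difference of -0.48 ± 0.21 (unadjusted p = 0.0406, adjusted p = 1.00, and 0.208 with the block). Leaving out replicate 3 of the mutant controls, a library outside that contrast, brought the adjusted p of cdr-4 with the block to 0.0324. cdr-2 had 143 to 166 in mutants with fluvastatin against 169 to 217 in wild type with fluvastatin (-0.32, adjusted p = 1.00). Without fluvastatin 0 of 8 were separated, where 2.92% of all genes were, and none had an unadjusted p under 0.05.

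Set on a scale of normalised reads per kb of exon, the order of the genes changed with fluvastatin. With fluvastatin cdr-4 led, at 892 ± 166 per kb in mutants and 1242 ± 191 in wild type, followed by mtl-2 at 608 ± 133 and 612 ± 109.9. In controls mtl-2 led, at 604 ± 214 per kb in mutants and 568 ± 243 in wild type, followed by cdr-6 at 455 ± 23.2 and 478 ± 57.4, and cdr-4 was the third at 278 ± 57.6 and 273 ± 53.3. This order is one of group means. The ranges of mtl-2 and cdr-6 overlapped in all 4 groups, and those of cdr-4 and mtl-2 overlapped in mutants with fluvastatin but not in wild type with fluvastatin.

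cdr-1 was the fourth of the 9 with fluvastatin, at 359 ± 72.6 per kb in mutants and 401 ± 89.9 in wild type, and next to last in controls, at 8.36 ± 4.86 and 10.8 ± 3.59. mtl-1 had the sixth mean in every group, at 158 ± 60.7 per kb in mutants with fluvastatin and 34.3 ± 15.4 in mutant controls, and at 169 ± 64.2 and 35.9 ± 20.1 in wild type with and without it. Its range overlapped that of cdr-2, the fifth, in both fluvastatin groups, that of cdr-5 in mutants with fluvastatin, and that of cdr-5, the seventh, in both control groups. Other neighbours with overlapping ranges were cdr-5 and cdr-7 in fluvastatin groups, and cdr-1 with cdr-5 and cdr-2 with cdr-7 in controls. Even at its highest, 242 per kb, mtl-1 stayed below the lowest mtl-2 library, 303 per kb.

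All 9 genes lie on chromosome V, and 6 of them adjoin each other. The genes cdr-4, cdr-5, cdr-7, cdr-6, cdr-2 and cdr-3 follow one another in that order over 10 kb (V:12407366-12417377), all on the minus strand, with 365 to 954 bp between neighbours and 0 other protein-coding genes between them. cdr-1 lies 3.50 Mb away. The genes called with fluvastatin, cdr-4 and cdr-5, are the pair at the left end of this row, and the next gene, cdr-7, had the only negative log2 differences of the 8 tested genes. None of the 9 overlaps another annotated gene. The sources used here do not state how reads that match several cdr genes were counted.

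**Figure D3:**
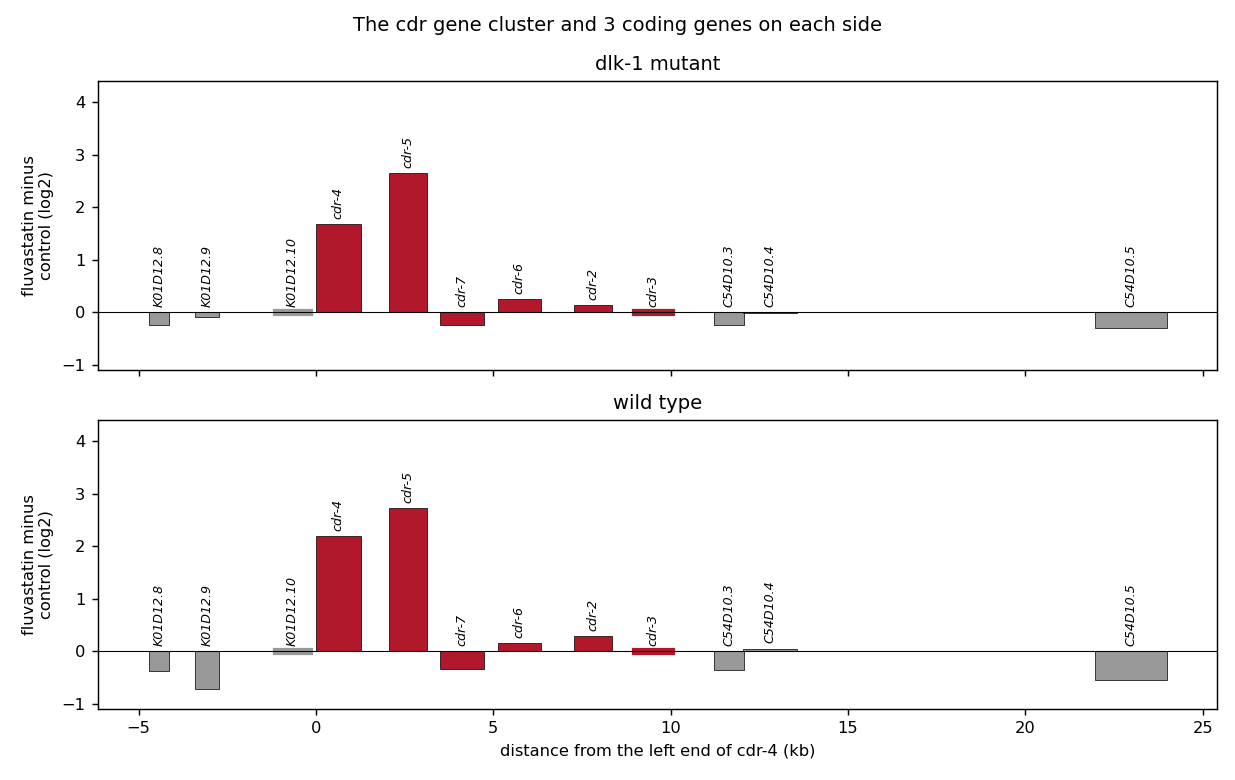
Log2 difference, fluvastatin minus control, along the 10 kb row of 6 cdr genes (red) and 3 coding genes on each side (grey), in the dlk-1 mutant (top) and wild type (bottom). Each bar spans its gene, with distance in kb from the left end of cdr-4, and a flat line marks a gene that was not tested. cdr-4 and cdr-5 stand at 1.68 and 2.65 in mutants and 2.19 and 2.72 in wild type, and their tested neighbours on either side lie below 0.3.

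Among the coding genes beside the members, none was called in limma without a replicate term. With the block, C54D10.3, on the right of the cdr row, was called lower in wild type (log2 -0.35, adjusted p = 0.0089) and not in mutants (-0.25, adjusted p = 0.0686). W02F12.2, the second coding gene to the right of mtl-1, was called higher in mutants (0.68, adjusted p = 0.00392) and in wild type (0.73, adjusted p = 0.00196). Both overlap another annotated gene.

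The members also differed between replicate numbers, in different ways. cdr-5 averaged 0.76 above its group means in log2 in replicate 1, -0.52 in replicate 2 and -0.24 in replicate 3. mtl-1 averaged 0.58 in replicate 1 and -0.47 in replicate 3. mtl-2 ran the other way, at -0.42 in replicate 1 and 0.41 in replicate 3. cdr-7 was lowest in replicate 2, at -0.48. Summed markers of epidermis, cuticle and moulting were also highest in replicate 1, at 12034 normalised reads in mutants with fluvastatin, 13013 in mutant controls, 11323 in wild type with fluvastatin and 12652 in wild-type controls, against 4939 to 8934 in replicates 2 and 3. Summed oocyte and germline markers were lowest in replicate 1, at 38564 to 42624 against 51730.0 to 57929 in the others. Summed sperm markers were lowest in replicate 2 of every group, at 1648 to 1758 against 4860 to 6352 in the others. Sums of intestine, pharynx and body wall muscle markers were also lowest in replicate 2 of every group. The part of any of these in the members' spread was not tested.

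Over the 12 libraries, the log2 levels of the members that were higher with fluvastatin followed each other. Pearson's r was 0.979 between cdr-1 and cdr-4, 0.950 between cdr-1 and cdr-5, 0.913 between mtl-1 and cdr-1, and 0.908 between mtl-1 and cdr-5. mtl-1 and mtl-2 had an r of -0.13. These values are descriptions over libraries that share the fluvastatin contrast, the replicate numbers and, within a library, its depth.

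Of 11154 genes with a mean of at least 50 normalised reads, the 5 whose levels over the 12 libraries were most like those of mtl-1 were C15C8.3 (r = 0.964), E04F6.6 (0.955), hrg-1 (0.953), ceeh-1 (0.951) and nhr-209 (0.947). The Ensembl annotation names C15C8.3 hrg-7, which in C. elegans encodes a protease-like protein of heme signalling between tissues. hrg-1 encodes a heme transporter, ceeh-1 an epoxide hydrolase and nhr-209 a nuclear hormone receptor. All 5 were picked for following mtl-1, which is higher with fluvastatin. Their own levels with and without fluvastatin are therefore descriptions. C15C8.3 averaged 3951 ± 818 normalised reads in mutants with fluvastatin and 1988 ± 375 in mutant controls, and 4468 ± 389 and 2192 ± 264 in wild type with and without fluvastatin. hrg-1 averaged 1734 ± 577 and 745 ± 243 in mutants with and without fluvastatin, and 1565 ± 313 and 700.4 ± 119 in wild type with and without it. C15C8.3, E04F6.6, hrg-1 and nhr-209 overlap other annotated genes, and the library kit does not mark strand.

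The genes most like mtl-2 were others: cpg-1 (r = 0.905), a gene of the egg's chondroitin proteoglycans, W10D9.3 (0.903), C30F12.4 (0.898), F43D9.8 (0.893) and hil-4 (0.892), a linker histone gene. F43D9.8 overlaps sip-1. None of these 5 was called with fluvastatin in either genotype. cpg-1, like mtl-2, was highest in replicate 3 of every group, at 10426 normalised reads in mutants with fluvastatin, 11211 in mutant controls, 10206 in wild type with fluvastatin and 9781 in wild-type controls.

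**Figure D4:**
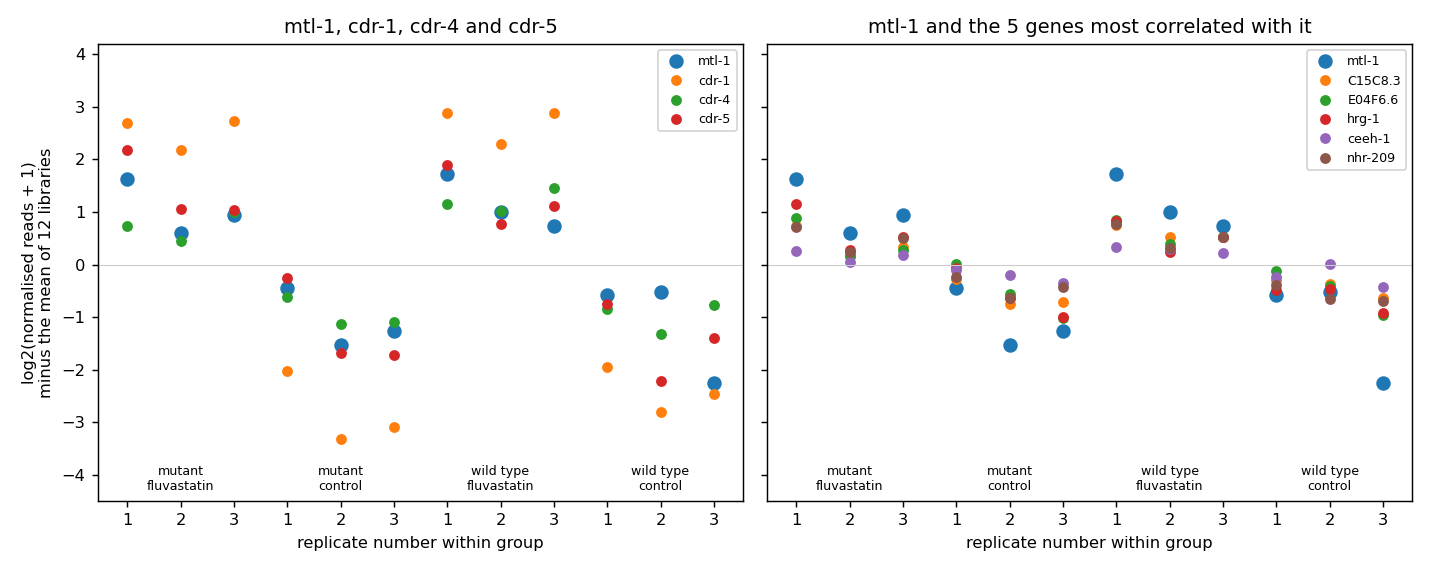
Log2(normalised reads + 1) minus the gene's mean over the 12 libraries, by group and replicate number, for mtl-1 with cdr-1, cdr-4 and cdr-5 (left) and for mtl-1 with the 5 genes most correlated with it (right). All these genes lie above 0 with fluvastatin, and replicate 1 is the highest mtl-1 library in 3 of the 4 groups. The genes were picked for being higher with fluvastatin or for following mtl-1, so their direction is a description.

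Genes of zinc transport and zinc sensing were examined next. Beside the counts of this list and those that follow, limma without the block called 1.38% of all genes in mutants and 1.82% in wild type. With the block the shares were 6.31% and 7.03%, in either direction. The lists were chosen with earlier results of these data known, so their counts are descriptions. Of 20 such genes, all tested and with hizr-1, the gene of a zinc-sensing nuclear receptor, among them, none was called in limma without a replicate term in either genotype, and with the block 1 rose and 2 fell in each. The riser was cdf-2, which in C. elegans stores zinc in lysosome-related organelles of the intestine. It had 249, 121 and 165 normalised reads in mutants with fluvastatin, against 103, 56.2 and 70.9 in mutant controls, and 191, 117 and 219.9 in wild type with fluvastatin, against 100, 59.7 and 73.6 in wild-type controls. The groups did not overlap, and the log2 difference was 1.19 in mutants and 1.15 in wild type (adjusted p with the block 0.000148 and 0.000153). The genes that fell were the zinc transporter genes zipt-13 (-0.28 in mutants and -0.31 in wild type) and zipt-2.3 (-0.73 and -0.94), the last of which overlaps kqt-3. The list's median was -0.01 in mutants and -0.02 in wild type.

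Of 10 genes of phytochelatin and glutathione synthesis and metal efflux, 2 rose in each genotype without the block, and both encode ABC transporters of the P-glycoprotein family. pgp-1 had 282, 431 and 348 normalised reads in mutants with fluvastatin, against 62.0, 41.9 and 75.6 in mutant controls, and 615, 599 and 592 in wild type with fluvastatin, against 110.5, 76.0 and 76.0 in wild-type controls. Its log2 difference was 2.56 in mutants (adjusted p = 0.000212) and 2.79 in wild type (adjusted p = 0.000109), although the gene overlaps other annotated genes. pgp-3 averaged 1679 ± 437 and 414 ± 86.1 in mutants with and without fluvastatin, and 1939 ± 503 and 509 ± 96.1 in wild type with and without it. Its log2 difference was 2.0 in mutants (adjusted p = 0.00288) and 1.91 in wild type (adjusted p = 0.003). With the block pgp-5 joined them in wild type (0.79, adjusted p = 0.0248) and not in mutants (0.19). The difference between genotypes passed for none of these genes.

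Of 11 copper and iron genes 9 were tested and none was called without the block. With it fpn-1.2, a ferroportin gene, fell in mutants, at 15.2 ± 5.26 normalised reads with fluvastatin and 47.8 ± 16.8 in controls, and in wild type, at 17.5 ± 4.81 and 55.3 ± 13.4 (log2 -1.59 and -1.61, adjusted p = 0.00034 and 0.000246). aco-1, the cytosolic aconitase gene, was higher by 0.24 in mutants and 0.23 in wild type, and fpn-1.1, which overlaps npp-13, was lower in wild type (-0.38).

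Of 11 cadmium-induced genes outside the 9, which include small heat shock genes and numr-1, none was called without the block. With it gst-38, a glutathione S-transferase gene, was called higher in wild type (0.80, adjusted p = 0.0448) and not in mutants (0.61, adjusted p = 0.157). The list's median log2 difference was -0.24 in mutants and -0.04 in wild type. hsp-16.48 and hsp-16.49 of this list had the same mean and the same log2 differences, so they are not separate observations. Their log2 difference in mutants is that median.

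Of 7 genes of transcription factors that act on the members, hizr-1 again included, none was called without the block, and 1 with it. This was pqm-1, a zinc finger factor, which averaged 777 ± 145 normalised reads in mutants with fluvastatin and 542 ± 148 in mutant controls, and 762 ± 164 and 552 ± 119 in wild type with and without fluvastatin (log2 0.54 and 0.46). Of 14 genes known to be activated by the insulin-signalling factor DAF-16, none was called without the block, and with it 1 rose (lea-1) and 3 fell in each genotype, among them the catalase gene ctl-2 and the lysozyme gene lys-8. ctl-2 averaged 943 ± 78.1 and 1293 ± 134 in mutants with and without fluvastatin, and 1024 ± 44.9 and 1459 ± 183 in wild type with and without it. lea-1, ctl-2 and lys-8 overlap other annotated genes.

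**Figure D5:**
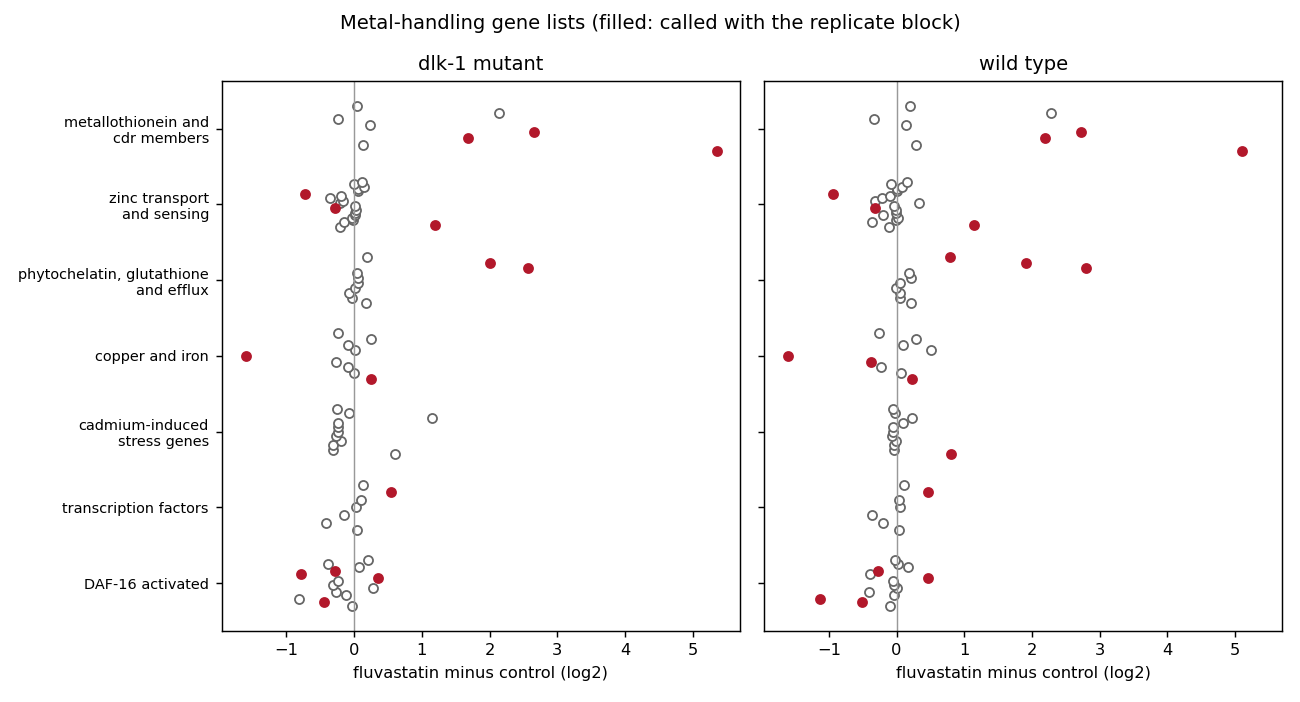
Log2 difference, fluvastatin minus control, of each tested gene of the metal-handling lists in the dlk-1 mutant (left) and wild type (right), 1 point per gene. Filled points have an adjusted p under 0.05 in limma with the replicate block, and mtl-1 is drawn as an open point. cdr-1, at 5.35 and 5.1, lies farthest from 0, pgp-1 and pgp-3 lie between 1.91 and 2.79, and fpn-1.2 is the lowest point in each panel.

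Tissue markers were read beside these results because the RNA came from whole worms, where fewer cells of a type and less RNA per cell cannot be told apart. Of 9 intestine markers found, none was called without the block, and with it 3 fell in each genotype: the acid phosphatase gene pho-1 and the protease genes asp-1 and cpr-6. Over all genes the block called 6.31% in mutants and 7.03% in wild type. The other intestine markers did not move together. ges-1 (log2 0.15 in mutants and 0.21 in wild type), elt-7, act-5 and ifb-2 had positive differences in both genotypes, and elt-2 and vha-6 negative ones, all uncalled. pho-1 averaged 1025 ± 118 normalised reads in mutants with fluvastatin and 1449 ± 209 in mutant controls, and 1069 ± 97.8 and 1536 ± 185 in wild type with and without fluvastatin, and it overlaps EGAP2.1. The summed intestine markers were 29718, 25407 and 32023 in mutants with fluvastatin, against 33010, 26062 and 40817 in mutant controls. In wild type they were 29457, 23161 and 31466 with fluvastatin, against 31773, 26834 and 40526 in controls. The ranges overlap, yet every same-numbered pair of sums was lower with fluvastatin. These sums lean on asp-1, the most abundant of the markers, with a mean of 11702 normalised reads over the 12 libraries. asp-1 itself was lower with fluvastatin in every same-numbered pair. The sums therefore do not show that the intestine markers fell as a set. None of the 9 was at 0 in any group. Markers of pharynx (5), body wall muscle (6), epidermis and moulting (12), sperm (10) and oocytes and germline (10) gave no call in either fit. The part of tissue amounts in the members' differences was not tested.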

How the data were processed

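Libraries (TruSeq RNA kit v2, 50 bp single reads, 1 lane) were made from whole worms, per the labels' protocols. Per the submitters' processing notes, the tools included Bowtie and DESeq2. The sources used here state neither the genome build nor the counting settings. The authors deposited 1 normalised signal value per transcript model (34873 models), reads divided by a size factor of 0.843 to 1.18. Whole reads were recovered for 100% of values (within 0.01 reads). For each gene the model with the highest mean was kept.

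The 4 groups (3 libraries each) were fitted together with limma 3.58.1 (R 4.3.3; trend and robust) on log2(value + 1), after a filter (at least 10 in at least 3 libraries), 2-sided, with Benjamini-Hochberg adjustment over 15529 genes. Fold changes are on that scale, which understates those of low genes. Intervals cover 95%. "Called" means an adjusted p under 0.05. The alternatives were a replicate block, edgeR 4.0.16 and DESeq2 1.42.0 on recovered reads, other pseudocounts, filters and scalings, and left-out libraries. Same-numbered libraries deviated together in 18 of 18 pairs (r 0.555 to 0.887), so the numbers pair the samples; this comes from the data. No pair of libraries agreed within sampling noise (chi-square per degree of freedom at least 9.16). The limma fit without a replicate term was tried on simulated reads for fluvastatin against control in wild type. The simulation held no replicate effect. It therefore covers neither the fit with the block nor the shared deviation of same-numbered libraries.

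Coordinates and overlaps are from Ensembl release 115 (WBcel235), joined by sequence name. The members and lists were chosen with earlier results of these data known; 134 of 135 list entries were found. Named genes are all 9 members, dlk-1, up to 3 called genes per list with the lowest adjusted p, and the 5 genes most correlated with mtl-1 and mtl-2. Promoter motifs were not analysed here. Counting intervals and the floor of 3 reads cover counting error only.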

Additional observations from a re-analysis of the deposited data

How the results depend on the processing

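With all 12 libraries the replicate block cannot change a limma log2 difference, since each replicate number occurs once in every group. That of mtl-1 was therefore 2.14 in mutants and 2.28 in wild type in both fits. edgeR with the replicate block gave 2.2 and 2.17, and DESeq2 without it 2.22 and 2.22. With libraries left out, with or without the block, its log2 difference ran between 1.85 and 2.45 in mutants and 1.71 and 2.75 in wild type. With libraries left out, the number of genes called among the 7 other tested members ran between 1 and 3 in mutants and 0 and 4 in wild type, and between mutant and wild type with fluvastatin it ran between 0 and 1 of 8. The fourth in wild type was cdr-7, called lower with the block when replicate 2 of wild-type fluvastatin was left out (-0.60, adjusted p = 0.0287). The lowest counts came without all libraries of replicate 1 (1 member in mutants, 1 in wild type) or replicate 3 (1 and 0), fits of 8 libraries in which cdr-4 and, in wild type without replicate 3, cdr-1 missed the threshold (adjusted p = 0.0482 in mutants and 0.051 in wild type for cdr-1). cdr-5 was also lost in mutants with edgeR without the block (adjusted p = 0.0671), and in a fit of only the groups compared (0.167 in mutants, 0.0845 in wild type). Over all genes, fluvastatin gave 980 calls with the block against 214 without it in mutants, and 1091 against 282 in wild type; DESeq2 called 362 and 437, and a fit of only the groups compared 109 and 169. The share of higher calls was lower with the block (500 of 980 and 586 of 1091) than without it (175 of 214 and 216 of 282). cdr-1, cdr-4 and cdr-5 were higher with fluvastatin in every alternative. So was mtl-1, but it had been singled out for that direction, so for mtl-1 this is a description and no support. All alternatives reuse the same libraries. The replicate block alone changed no call of the 7. The causes were not tested. mtl-1, cdr-1 and cdr-5 in controls rest on 4 to 27 reads per library, which limits their fold changes.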

Other observations

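Because cdr-5 is annotated as hrg-2, and C15C8.3 (hrg-7) and hrg-1 were among the genes most like mtl-1, the other genes that the annotation names hrg were read as values; they were chosen after those results were seen and carry no test. hrg genes of C. elegans are named for their response to heme, and HRG-1 and HRG-4 import it. The annotation holds 9, of which 8 passed the filter on low values, cdr-5 included.

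hrg-3, which encodes a small secreted heme carrier, averaged 102 ± 41.2 normalised reads in mutants with fluvastatin and 10.2 ± 3.31 in mutant controls, and 102 ± 45.3 and 12.5 ± 0.601 in wild type with and without fluvastatin. Its log2 difference was 3.15 in mutants and 2.82 in wild type. hrg-4 averaged 171 ± 47.3 and 86.7 ± 20.5 in mutants with and without fluvastatin, and 229 ± 16.201 and 110.5 ± 25.5 in wild type with and without it. hrg-6 ran lower with fluvastatin, at 20 ± 1.29 against 32.7 ± 5.31 in mutant controls, and at 20.6 ± 2.90 against 32.9 ± 6.76 in wild-type controls. hrg-9 and hrg-10 had overlapping groups, and hrg-5 was too low to test. hrg-3 overlaps the annotated gene F58E6.11. Of the 7 hrg genes tested outside the 9 members, hrg-3 and hrg-4 had every fluvastatin library above every control library of the same genotype, as had hrg-1 and hrg-7, which prompted the look, and hrg-6 had every fluvastatin library below. Groups did not overlap, in either direction, for 7.93% of all genes in mutants and 8.97% in wild type.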
